A study of Melitaea cinxia with 170 samples.

Results

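The 100 transcripts described here are those whose levels differed most between individual Glanville fritillary butterflies (Melitaea cinxia) of both sampled islands. They were chosen on the measured spread. The read counts of each butterfly were summed and expressed as CPM, the count relative to the butterfly's total, and 3172 of 16667 gene models reached a mean of at least 10 CPM in each island. For those, the log2 ratio of the 90th to the 10th percentile of CPM, each plus 0.5, was computed in each island, and the 100 gene models with the highest lower value of the pair were kept. The rule read island labels, but neither sex nor treatment. The study measured RNA from the thorax of 85 butterflies, 40 from AL (Åland) and 45 from PT (Pikku Tytärsaari), islands in the Baltic Sea. There were 53 females and 32 males. Of the AL butterflies, 13 were frozen 1 h after the start of a flight treatment, 15 about 20 h after it, and 6 at each time as controls that were handled alike but not flown. The corresponding PT numbers were 16, 15, 7 and 7. By island, sex and treatment, the groups held 2 to 10 butterflies, and groups are named here as the labels write them, for example AL female Flight1h. The labels give no age, rearing history or kinship of the butterflies.

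The thorax carries the wings, and most of its mass is flight muscle, beside fat body, blood cells, tracheae, gut and cuticle. Flight muscle transcripts of the contractile apparatus are abundant in such tissue, whereas transcripts of immune, storage and stress proteins are known in insects to differ widely between individuals with their condition. The reference table for this species holds 0 of the 16667 identifiers, so no role, name, position or sequence can be given for any transcript below, and no marker of muscle or of another tissue could be looked up. In whole-thorax RNA, fewer cells of a type and less RNA per cell cannot be told apart. Summed counts ran from 1820059 to 6944328 per butterfly, with a median of 3576787 in females and 4829154 in males. The 100 transcripts held between 0.721% and 14.1% of a butterfly's counts. A butterfly without a read of a transcript can still hold up to 0.432 to 1.65 CPM of it, the level of 3 counts at its depth, by counting error only. At least 1 butterfly had no read in 41 of the 100 transcripts, against 115 of the other 3072 gene models of the pool.

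The spread itself, which chose the transcripts, is given as a description. The log2 ratio of the 90th to the 10th percentile lay between 2.99 and 8.48 in AL and between 2.98 and 9.11 in PT, and it was the larger in AL for 64 transcripts. MCINXTMP_012439 had the highest rule value, with ratios of 8.48 in AL and 9.11 in PT. It was followed by MCINXTMP_009163 (rule value 7.71), MCINXTMP_008527 (6.93), MCINXTMP_010908 (6.66), MCINXTMP_012856 (6.48) and MCINXTMP_000474 (5.41). Just inside the limit stood MCINXTMP_002709 (3.00), MCINXTMP_005981 (2.99) and MCINXTMP_014107 (2.98064). Just outside it stood MCINXTMP_003976 (2.98044), MCINXTMP_013094 (2.97) and MCINXTMP_011403 (2.97). The list therefore ends inside a continuous range of spreads. It held 36 transcripts with a mean under 20 CPM, 45 between 20 and 100 CPM and 19 of at least 100 CPM. Among the other 3072 gene models of the pool, these numbers were 707, 1590 and 775. The 100 thus held a larger share of transcripts under 20 CPM than the rest of the pool, but were not limited to them.

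**Figure D1:**
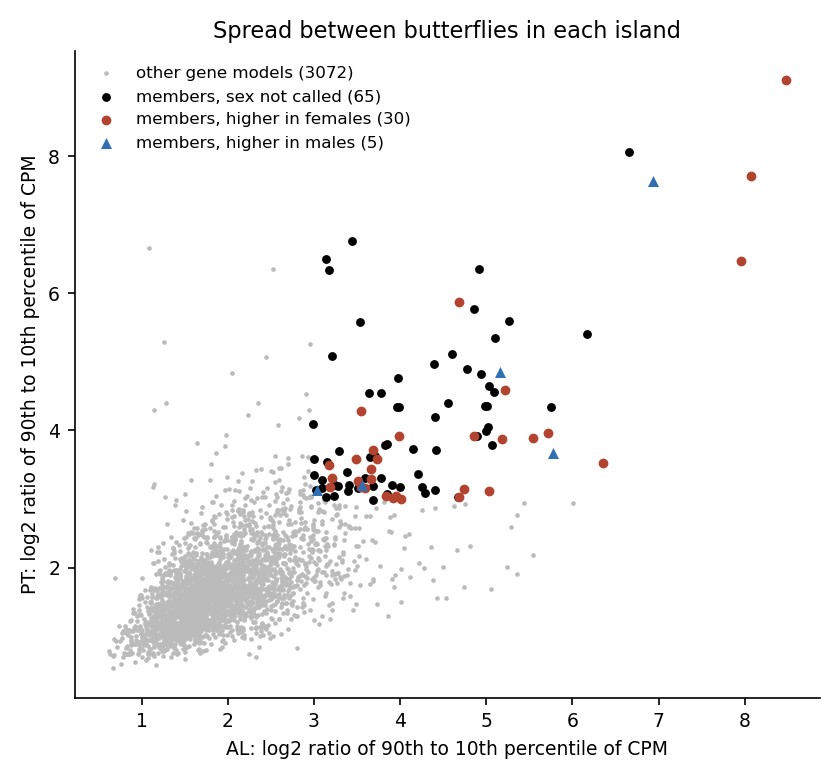
Each point is 1 of the 3172 gene models, placed by its log2 ratio of the 90th to the 10th percentile of CPM in AL (horizontal axis) and in PT (vertical axis). The 100 chosen transcripts fill the upper right corner, by construction, and those called higher in females (30, red) include the most distant point at 8.48 and 9.11, while 5 (blue triangles) were called higher in males.

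MCINXTMP_008527 divided the butterflies into a low and a high class in both islands. In AL, its level was between 3.54 and 18.8 CPM in 23 butterflies and between 170 and 1984 CPM in the other 17, with no butterfly in between. In PT, 21 butterflies had between 1.55 and 33.2 CPM and the other 24 between 195 and 2221 CPM. The step between the classes was 8.86-fold in AL and 5.80-fold in PT on the scale of CPM plus 0.5. Both classes held females and males: 8 of 25 AL females, 9 of 15 AL males, 14 of 28 PT females and 10 of 17 PT males were in the high class. Both classes also held flown butterflies and controls, with 9 of 28 flown and 8 of 12 control butterflies high in AL, and 19 of 31 flown and 5 of 14 control butterflies high in PT. The libraries of each butterfly, made from the same RNA with different insert sizes, fell on the same side of the step in all 40 AL and all 45 PT butterflies. Since the classes were seen in these values, their make-up is given with no test.

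MCINXTMP_010908 showed such a step in PT. There, 28 butterflies had at most 6.15 CPM, 8 of them without a read, and the other 17 had between 67.6 and 213 CPM. The high class held 13 of 28 females and 4 of 17 males, and both libraries of all 45 butterflies agreed on the side. In AL, its values ran without such a step from 0 to 225 CPM. MCINXTMP_014162 also had a step in PT, with 12 butterflies at or below 8.68 CPM and 33 at or above 89.7 CPM. Its low class held 9 of 28 females and 3 of 17 males, and both libraries of all 45 butterflies lay on the same side. In AL, it ran from 1.24 to 95.9 CPM, and its widest gap with at least 10% of the butterflies on each side lay between 9.36 and 12.6 CPM. These steps were picked out after the values were seen. Wide spread, which the rule picked, makes wide gaps more likely, so nothing is read from the difference between the following counts. A gap of at least 1 on the log2 scale in both islands, with at least 10% of the butterflies on each side, was found in 5 of the 100 transcripts and in 1 of the other 3072. Beside MCINXTMP_008527 these were MCINXTMP_012856, MCINXTMP_012439 and MCINXTMP_009163, whose steps fell between the sexes apart from 1 AL female and 2 AL males, and MCINXTMP_002871. MCINXTMP_002871 had its step between 0.970 and 2.44 CPM in AL and between 2.85 and 8.35 CPM in PT, with females and males on both sides. In PT, 17 of 45 butterflies were below it. The libraries of a butterfly fell on the same side of this step in 37 of 40 AL and 44 of 45 PT butterflies. In AL, the lower edge of the step lay within 0.432 to 1.65 CPM, the range given above for 3 counts.

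Many of the transcripts differed between the sexes. Of the 100 transcripts, 35 passed the test of males against females, 30 higher in females and 5 higher in males, by edgeR's quasi-likelihood test at a Benjamini-Hochberg adjusted p under 0.05. Over all 7643 gene models tested, 19.5% were called, and over the 3172 gene models of the pool 31.9%, split into 556 higher in males and 456 higher in females. A sex difference widens the spread that the rule used, so the number called is given beside these shares and nothing further is read from it. The 100 transcripts had a median log2 fold change of -0.22, against 0.0045 over the pool. Males had the higher median depth, and their scaling factors averaged 0.867 against 1.11 in females. The part of depth in these differences was not tested.

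In 3 transcripts, females were high and males near 0. MCINXTMP_012856 ran from 6.67 to 262 CPM in AL females, with a median of 77.8, and from 6.94 to 94.6 CPM in PT females, with a median of 30.3. In males its highest level was 2.68 CPM in AL and 0.632 CPM in PT, and 4 of 15 AL males and 13 of 17 PT males had no read. No male reached the lowest female. The fitted difference of males minus females was -7.07 on the log2 scale (SE 0.34, adjusted p = 6.12e-32).

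MCINXTMP_012439 lay between 50.5 and 521 CPM in AL females (median 137) and between 100.1 and 1926 CPM in PT females (median 397). AL males had 0 to 12.1 CPM and PT males 0 to 6.39 CPM, again without overlap with the females. The difference was -6.54 (SE 0.40, adjusted p = 1.04e-23). MCINXTMP_009163 ranged from 8.48 to 882 CPM in AL females and from 9.92 to 1864 CPM in PT females. AL males reached 15.1 CPM, above the lowest females, and 12 of 17 PT males had no read. Its difference was -6.63 (SE 0.53, adjusted p = 3.97e-17).

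MCINXTMP_006617 had the highest mean CPM of the 100 and held 70.3% of their counts. These CPM values are not corrected for transcript length. It ran from 9459 to 125042 CPM in AL females (median 61155) and from 598 to 15406 CPM in AL males (median 8632). PT females ran from 4552 to 29392 CPM (median 14456) and PT males from 1025 to 18331 CPM (median 3654). The sexes overlapped in each island, and the difference was -2.04 (SE 0.21, adjusted p = 8.52e-13). MCINXTMP_006612, second in mean CPM, ran from 1007 to 7560 CPM in AL females and from 2007 to 15399 CPM in PT females. AL males lay between 92.1 and 462 CPM and PT males between 434 and 2730 CPM. Within AL the sexes did not overlap, while within PT they did.

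MCINXTMP_006611 and MCINXTMP_006615 carry numbers close to these and were also called higher in females, by -2.55 (SE 0.32) and -3.34 (SE 0.24). This set of 4 was picked after its values were seen. Whether close or consecutive numbers mean neighbouring genes is not given in the sources used here, and near-identical copies could share reads. After subtraction of the sex by treatment means, the correlation across butterflies ran over the 6 pairs from 0.26 to 0.61 in AL and from -0.17 to 0.38 in PT. It was lowest in both islands between MCINXTMP_006611 and MCINXTMP_006612. Between MCINXTMP_006611 and MCINXTMP_006615 it was 0.60 in AL and 0.38 in PT.

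The sex difference itself differed between islands in 2 of the 100 transcripts, with 0.458% of all gene models tested called in that comparison, which was added after the sex effects had been seen. MCINXTMP_004333 had a male minus female difference of -4.06 in AL and -1.40 in PT, and the difference between them was -2.66 (SE 0.55, adjusted p = 0.0076 by edgeR's quasi-likelihood test). Its median was 69.1 CPM in AL females, 2.41 in AL males, 138 in PT females and 48.7 in PT males. For MCINXTMP_006612 the differences were -4.13 in AL and -2.63 in PT, and they differed by -1.50 (SE 0.33, adjusted p = 0.020). In both transcripts AL males had the lowest median of the 4 groups, at 162 CPM for MCINXTMP_006612.

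The 5 transcripts higher in males included MCINXTMP_015668, which separated the sexes without overlap. It lay between 8.68 and 60.6 CPM in AL females and between 17.3 and 61.1 CPM in PT females. AL males had 105 to 257 CPM and PT males 102 to 283 CPM. The difference was 2.76 (SE 0.09, adjusted p = 1.42e-44), and after subtraction of the sex by treatment means its range was the narrowest of the 100, at 0.98 in AL and 0.87 in PT. MCINXTMP_008527, the transcript with the low and high classes, was also higher in males, by 2.58 (SE 0.58, adjusted p = 0.000451). The sexes overlapped widely, at 3.54 to 423 CPM in AL females and 9.36 to 1984 CPM in AL males, and it missed the threshold in PT alone (adjusted p = 0.0898). The other 3, named because they were so few, were MCINXTMP_002861 (2.07), MCINXTMP_010099 (1.66) and MCINXTMP_015591 (0.91). In all, 4 of the 100 transcripts had no overlap between all males and all females: MCINXTMP_012439, MCINXTMP_012856, MCINXTMP_006615 and MCINXTMP_015668. Separation of the sexes widens the spread that the rule used. No such count is given for the other gene models, so nothing further is read from these 4.

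**Figure D2:**
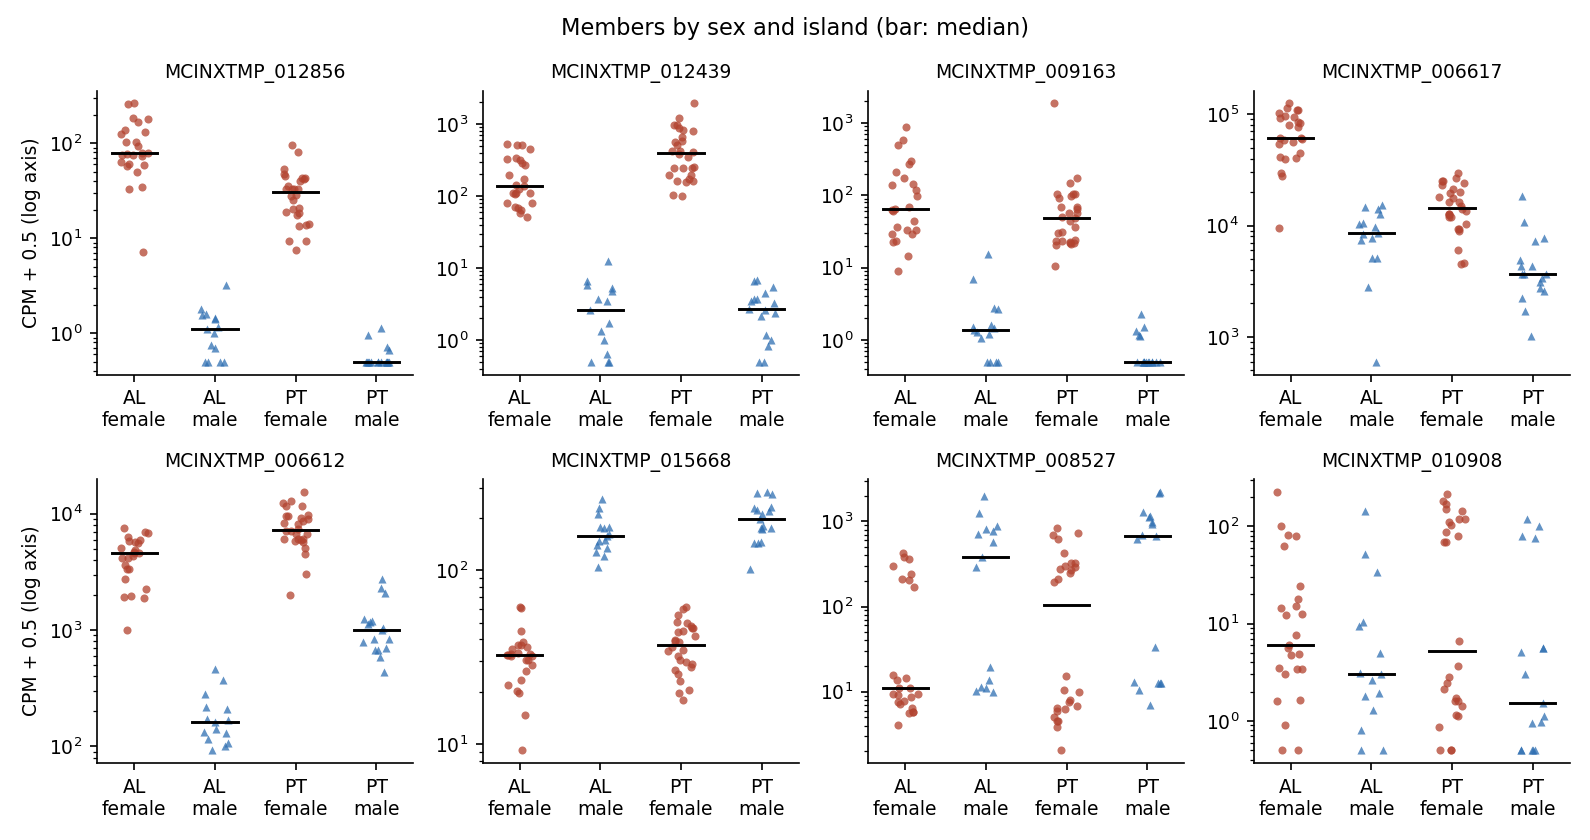
CPM plus 0.5 on a log axis for 8 transcripts in AL females (n = 25), AL males (n = 15), PT females (n = 28) and PT males (n = 17); each point is 1 butterfly and the bar is the median. MCINXTMP_012856 and MCINXTMP_012439 fall apart by sex without overlap, MCINXTMP_015668 does so in the opposite direction, and MCINXTMP_008527 has a low and a high class within each sex.

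Flight was followed at 1 h by higher levels of 4 of the 100 transcripts and lower levels of 0. Called were 0.327% of all gene models tested and 0.504% of the pool. A flight effect widens the spread that the rule used, so nothing further is read from the numbers called for flight, here and below. MCINXTMP_003386 had between 0 and 4.11 CPM in the 6 AL controls at 1 h, with a median of 1.53. The 13 flown AL butterflies had between 44.4 and 93.3 CPM, with a median of 59.1, so the groups did not overlap. In PT, the 7 controls had between 0 and 29.8 CPM (median 4.26) and the 16 flown butterflies between 0.638 and 149 CPM (median 39.8). Here the groups overlapped. The flight effect over both islands was 3.67 on the log2 scale (SE 0.66, adjusted p = 0.000872 by edgeR's quasi-likelihood test).

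MCINXTMP_009203 rose by 3.28 (SE 0.56, adjusted p = 0.000333). In AL, controls had 6.28 to 28.5 CPM and flown butterflies 118 to 692 CPM. In PT, controls had 2.57 to 80.2 CPM and flown butterflies 4.85 to 701 CPM. MCINXTMP_015383 rose by 2.89 (SE 0.53, adjusted p = 0.00106), with flown AL butterflies between 161 and 761 CPM and AL controls between 9.27 and 35.0 CPM. MCINXTMP_003916 rose by 2.67 (SE 0.49, adjusted p = 0.00106), with 59.5 to 859 CPM in flown AL butterflies and 10.7 to 28.0 CPM in AL controls. In each of the 4, flown and control butterflies did not overlap in AL and overlapped in PT.

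Fitted in each island alone, the flight effects of these 4 were 5.19, 4.31, 3.97 and 3.77 in AL, all called, in the order in which they are named above. In PT they were 2.04, 2.30, 1.79 and 1.43, and none was called. The island difference in the flight effect at 1 h was 3.09 (SE 1.17) for MCINXTMP_003386 and 2.01 (SE 0.96) for MCINXTMP_009203. It passed the test in 0 of the 100 transcripts, with 0% called among all gene models tested, and in 0 of the 100 by DESeq2 and by limma-voom. At an unadjusted p under 0.05 by edgeR's test stood 12 of the 100 and 369 of all 7643 gene models tested. The differing calls therefore do not show that the islands differed. At 20 h, the levels of MCINXTMP_003386 in flown AL butterflies lay between 3.07 and 25.2 CPM, below every flown AL butterfly at 1 h.

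**Figure D3:**
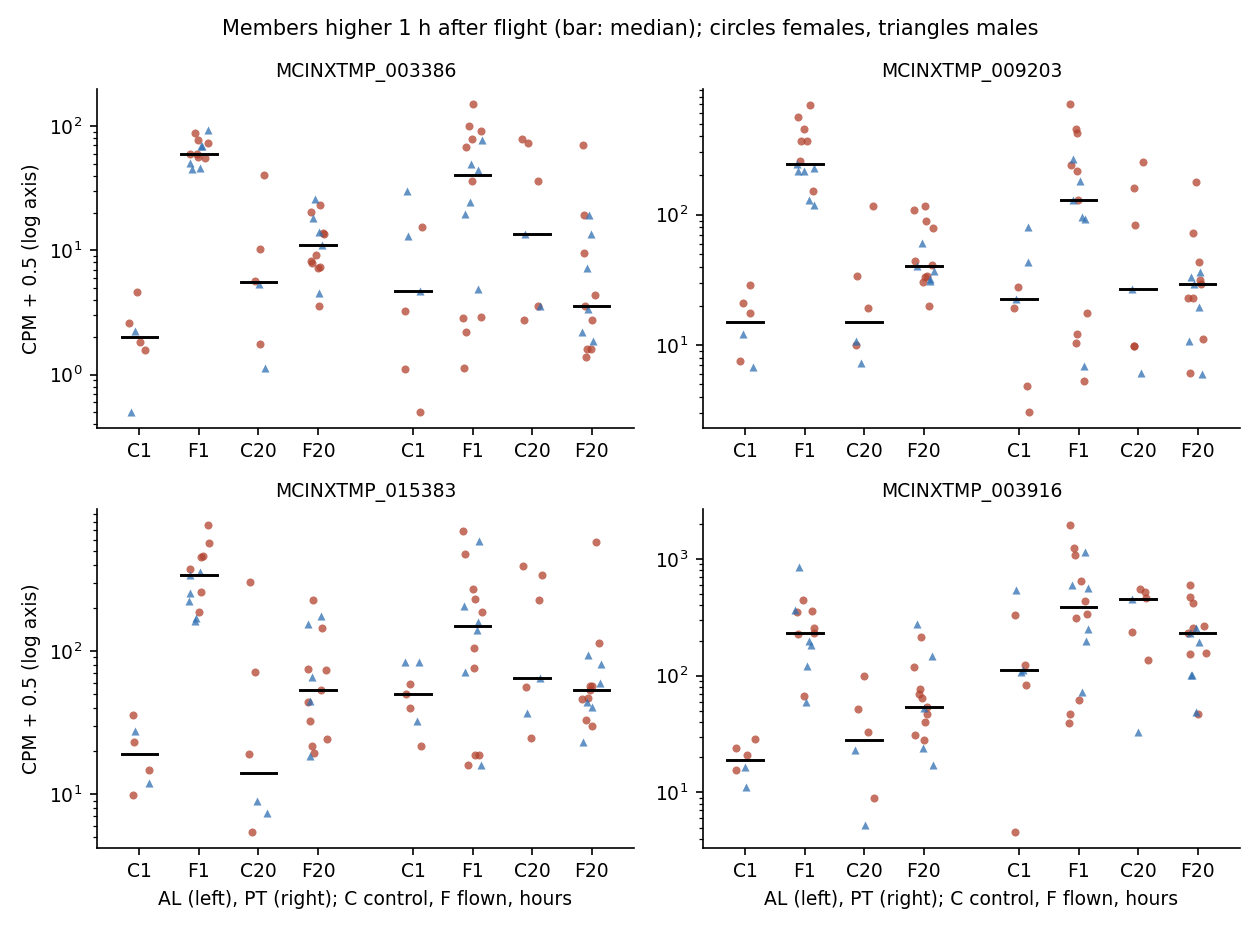
CPM plus 0.5 on a log axis for the 4 transcripts called higher 1 h after flight; columns are controls (C) and flown butterflies (F) at 1 h and 20 h in AL (left) and PT (right), circles are females, triangles males and bars medians. In AL the flown butterflies at 1 h stand above all controls at 1 h, as for MCINXTMP_003386 with 44.4 to 93.3 against 0 to 4.11 CPM, while in PT the groups overlap.

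At 20 h, 8 of the 100 transcripts passed the test, 7 higher and 1 lower in flown butterflies. Called were 1.71% of all gene models tested and 3.09% of the pool, and a flight effect at 20 h also widens the spread that the rule used. MCINXTMP_000474 rose by 3.55 (SE 0.84, adjusted p = 0.0127 by edgeR's quasi-likelihood test). The 6 AL controls had 3.05 to 68.7 CPM (median 16.7) and the 15 flown AL butterflies 19.3 to 5542 CPM (median 127). In PT, the 7 controls had 9.0 to 69.4 CPM (median 43.6) and the 15 flown butterflies 7.75 to 1569 CPM (median 68.0). The groups overlapped in both islands, and the flown group reached far higher at its upper end.

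MCINXTMP_012361 rose by 2.83 (SE 0.77, adjusted p = 0.0343), with AL controls at 4.24 to 61.4 CPM and flown AL butterflies at 4.88 to 5168 CPM. In PT, controls had 10.5 to 185 CPM and flown butterflies 10.1 to 726 CPM. Its call was lost in 14 of 42 alternative settings, among them the leaving out of AL male Flight20h replicate 2 (2.40, adjusted p = 0.0625). MCINXTMP_008074 was the transcript that fell, by -2.25 (SE 0.56, adjusted p = 0.0179). Its medians were 45.8 CPM in AL controls and 42.3 CPM in flown AL butterflies, against 7.46 and 3.65 CPM in PT. PT controls ran from 5.42 to 424 CPM, PT flown butterflies from 0.778 to 80.9 CPM, and the effect was -0.87 in AL and -3.78 in PT. Its call was lost without AL female Control20h replicate 1, the control with 195 CPM (-1.87, adjusted p = 0.0797). The island difference in the flight effect at 20 h was called in 0 of the 100, against 0.0785% of all gene models tested. By DESeq2 and by limma-voom it was called in 1 of the 100. At an unadjusted p under 0.05 by edgeR's test stood 9 of the 100 and 843 of all 7643 gene models tested.

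**Figure D4:**
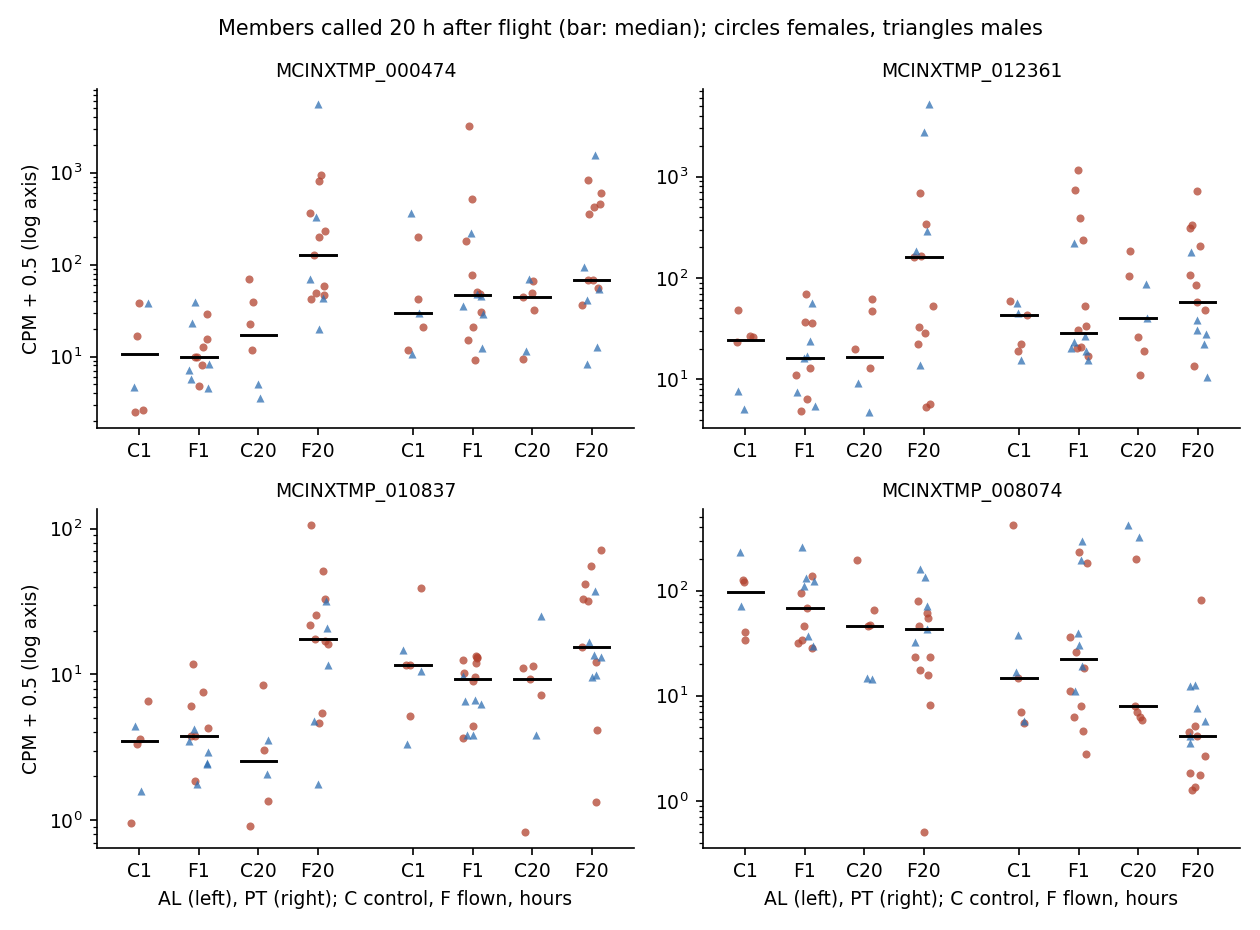
CPM plus 0.5 on a log axis for 4 transcripts called 20 h after flight, with columns and symbols as for the transcripts at 1 h: C controls, F flown, AL left, PT right, circles females, triangles males, bars medians. Flown butterflies at 20 h spread upward from the control range, up to 5542 CPM for MCINXTMP_000474 in AL, and the medians of MCINXTMP_008074 are 45.8 CPM in controls and 42.3 CPM in flown butterflies of AL and 7.46 and 3.65 CPM in PT, with PT controls up to 424 CPM.

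The count at 20 h depended on single butterflies and on the tool. It was 17 by the DESeq2 Wald test and 10 by limma-voom, and it fell to 5 without AL female Control20h replicate 4, AL male Control20h replicate 1, or PT female Control20h replicate 1, 2 or 4. The change of the flight effect from 1 h to 20 h, from the same butterflies, was called in 8 of the 100. In this comparison 0.654% of all gene models tested and 1.2% of the pool were called. It was lower in 4, which were those that rose at 1 h, with -4.46 (SE 0.81, adjusted p = 0.00122) for MCINXTMP_003386 and -3.54 (SE 0.69, adjusted p = 0.00239) for MCINXTMP_009203. It was higher in 4, with 2.28 (SE 0.58, adjusted p = 0.0353) for MCINXTMP_015257 and 2.20 (SE 0.53, adjusted p = 0.0215) for MCINXTMP_010837. Of 42 alternative settings, the call of MCINXTMP_015257 was lost in 15 and that of MCINXTMP_010837 in 7. MCINXTMP_015257 had a median of 24.4 CPM in AL controls and 57.7 CPM in flown AL butterflies at 20 h, against 5.17 and 25.7 CPM in PT. This count was 2 by limma-voom, and it fell to between 3 and 5 without AL female Control1h replicate 3, AL female Control20h replicate 3, AL male Control1h replicate 1, PT female Control20h replicate 2 or 4, or PT female Control1h replicate 4.

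Time in the cages without flight was examined in the controls, 20 h against 1 h. Of the 100 transcripts, 0 passed edgeR's test, as did 0% of all gene models tested, and 0 of the 100 passed by DESeq2 and by limma-voom. At an unadjusted p under 0.05 by edgeR's test stood 7 of the 100 and 309 of all 7643 gene models tested. The sex difference in the flight effect, averaged over both times, was called in 1 of the 100 and in 0.523% of all gene models tested. MCINXTMP_007139 had 1.29 to 32.0 CPM in the 17 control females (median 8.81) and 6.70 to 94.1 CPM in the 36 flown females (median 20.0). The 9 control males had 0.650 to 23.4 CPM (median 9.95) and the 23 flown males 1.22 to 28.5 CPM (median 6.52). The male minus female difference in the flight effect was -1.75 (SE 0.44, adjusted p = 0.0408 by edgeR's quasi-likelihood test). It was lost in 18 of 41 alternative settings, with adjusted p from 0.0100 to 0.823 over them.

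Between islands, 32 of the 100 transcripts passed the test, 12 higher in AL and 20 higher in PT, where 43.9% of all gene models tested and 46.1% of the pool were called. The rule required 10 CPM in each island, for the pool as for the 100, which left out transcripts near 0 in either. The median absolute island difference was 0.52 on the log2 scale in the 100, against 0.33 over the pool. Wide spread within an island, which the rule picked, makes a difference harder to call, so nothing is read from the lower share called. MCINXTMP_014647 was higher in AL by 1.99 (SE 0.41, adjusted p = 3.74e-05 by edgeR's quasi-likelihood test). It ran from 0.911 to 365 CPM in AL (median 53.6) and from 0 to 122 CPM in PT (median 5.79). MCINXTMP_006617 was higher in AL by 1.68 (SE 0.21, adjusted p = 9.70e-11). MCINXTMP_014162 was higher in PT, with -2.96 for AL minus PT (SE 0.45, adjusted p = 7.53e-08). It ran from 1.24 to 95.9 CPM in AL (median 16.5) and from 0.302 to 352 CPM in PT (median 167), so that PT butterflies covered the whole AL range. MCINXTMP_003916, one of the transcripts higher 1 h after flight, was higher in PT as well, with -2.29 (SE 0.33, adjusted p = 1.37e-08).

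Of the 100 transcripts, 53 were called neither for sex nor in any comparison of flight, and 45 of these were not called between islands either. Over the pool, 31.9% were called for sex and 46.1% between islands, but the joint numbers were not counted there. Nothing further is therefore read from the 53 and the 45. After subtraction of the sex by treatment means of each island, the 100 still spanned a median of 2.81 in AL and 3.02 in PT between the 10th and 90th percentile of log2(CPM + 0.5). The rule chose the transcripts on these same values, so a range wider than in the other gene models of the pool, which spanned 1.43 and 1.37, follows from it. The groups held a median of 41.9% of a transcript's variance in AL and 20.5% in PT, against 34.3% and 23.3% in the other gene models. These shares are not corrected for the number of groups, and some share arises without any group effect. MCINXTMP_010908 had the widest remaining range, 5.94 in AL and 7.51 in PT, followed by MCINXTMP_008527 (5.70 and 6.99) and MCINXTMP_002871 (4.72 and 5.64). MCINXTMP_012012, the next in mean CPM after those named above, ran from 93.2 to 4781 CPM in AL females and from 142 to 5433 CPM in AL males. In PT it ran from 109 to 3651 CPM in females and from 95.7 to 3509 CPM in males, and none of the comparisons of sex, flight or island called it. MCINXTMP_016574, which followed it in mean CPM, spanned 42.8 to 3189 CPM in AL and 104 to 7146 CPM in PT.

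Most pairs of the 100 were weakly correlated once sex and treatment means were subtracted. The median correlation between pairs of them was 0.03 in AL and 0.05 in PT, and 32 of 4950 pairs (0.647%) reached 0.5 in both islands, against 0.188% of all pairs in the pool. Pairs share libraries and depth, and no test is given. The rule picked wide spread between butterflies, beside which counting error weighs less in a correlation, so nothing is read from the difference in these shares. A total of 16 transcripts formed 4 groups of at least 3. The group of 5 centred on MCINXTMP_014001, whose closest partner was MCINXTMP_001295 with correlations of 0.80 in AL and 0.84 in PT. MCINXTMP_014001 spanned 3.30 to 175 CPM in AL and 1.70 to 972 CPM in PT. A group of 4 centred on MCINXTMP_012359, closest to MCINXTMP_012361 (0.74 and 0.90), and it included MCINXTMP_000474, so that 3 of its 4 transcripts were among those called at 20 h. Another group of 4 centred on MCINXTMP_014647, closest to MCINXTMP_014648 (0.79 and 0.91), whose numbers are consecutive. In that group AL butterflies had the higher median of MCINXTMP_014647, and PT butterflies that of MCINXTMP_014650 (41.7 against 22.2 CPM). The group of 3 centred on MCINXTMP_015383, closest to MCINXTMP_009203 (0.64 and 0.89), both of which rose 1 h after flight.

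The percentiles of the rule leave several butterflies of each island beyond each limit, so a single butterfly could move the measured spread only little. The holders of the highest values are therefore given as a description. In each island, 34 butterflies held the highest value of at least 1 of the 100 transcripts. PT female Flight1h replicate 10 held the most, with 18 highest values and 33 transcripts in the top 10% of its island (the 4 highest AL or 5 highest PT butterflies), at a depth of 3039234 counts. AL female Flight20h replicate 4, the butterfly with the fewest counts (1820059), held 13 highest values, and it also had the lowest level of MCINXTMP_006617 among AL females. Without either butterfly, 96 and 93 of the 100 transcripts were chosen again. The use of percentiles makes such high numbers likely, so nothing further is read from them. Of the 11 butterflies with at least 20 transcripts in the top 10%, all 11 were flown females, at depths from 1820059 to 4557200 counts. Of all 85 butterflies, 53 were females and 59 were flown, and 30 of the 35 transcripts called for sex were higher in females. Over the rest of the pool, the mean log2(CPM + 0.5) of the AL butterflies among these 11 ran from 5.78 to 6.28. It ran from 5.07 to 6.28 in all AL butterflies. For the PT butterflies among the 11 it ran from 5.46 to 5.93, and from 5.30 to 5.93 in all PT butterflies. The part of this level in the pattern was not tested. Females had a median of 11 transcripts in the top 10% in AL and 12 in PT, and males 5 and 6, with ranges that overlapped (5 to 28 against 1 to 18 in AL, and 4 to 33 against 0 to 18 in PT). Males held a median of 16 transcripts in the bottom 10% in each island, females 6 in AL and 8 in PT.

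**Figure D5:**
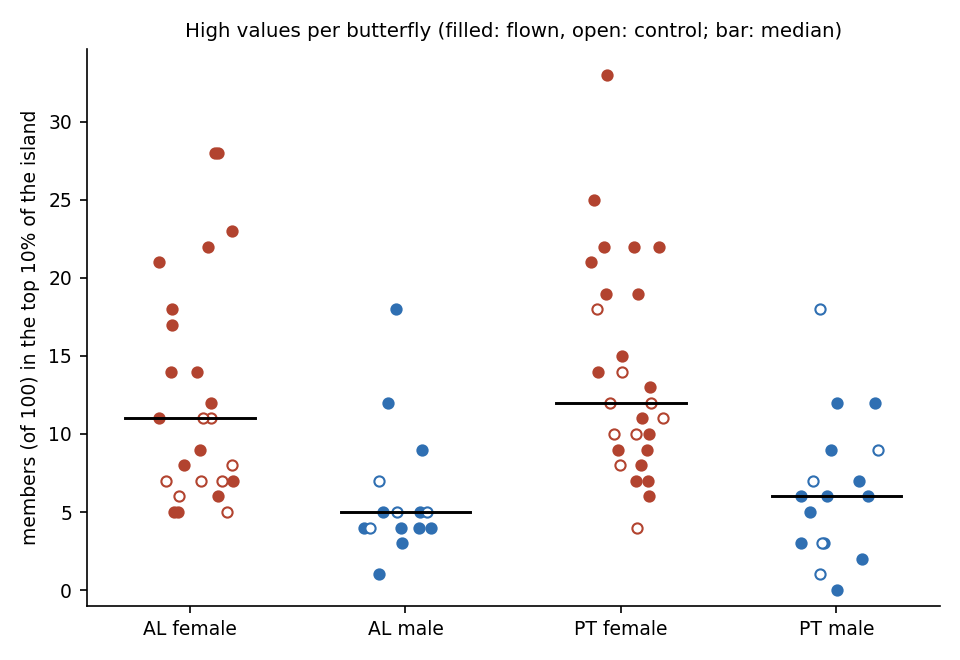
Number of the 100 transcripts for which each butterfly was in the top 10% of its island (vertical axis), by island and sex; each point is 1 butterfly, filled for flown and open for controls, and bars are medians (11, 5, 12 and 6). Females reach up to 28 in AL and 33 in PT, males at most 18 in either.

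The libraries of 1 butterfly held more than 50% of the variance of log2(CPM + 0.5) in 5 of the 100 transcripts in AL, in 13 in PT and in 3 in both islands. In the 100 transcripts, a median of 18.7% of the variance lay between the libraries of 1 butterfly, averaged over the islands, against 42.5% in the other gene models of the pool. The rule picks wide spread between butterflies, which lowers this share, so nothing is read from that difference. The share moved with the level, from 36.8% below 20 CPM to 16.1% between 20 and 100 CPM and 4.11% from 100 CPM on. It was highest in MCINXTMP_011706 (76.6% in AL and 78.9% in PT), MCINXTMP_016258 (60.2% and 79.4%) and MCINXTMP_008703 (40.7% and 80.1%). In PT, more of the variance of these 3 lay between the libraries of a butterfly than between butterflies. MCINXTMP_011706 spanned 0 to 35.1 CPM in AL and 0 to 32.4 CPM in PT. By insert size, 33 of the 100 transcripts differed between the libraries of 450 nt and 650 nt by limma on differences within butterflies, 16 higher at 650 nt, where 22.2% of all gene models tested were called. In the 100 the median absolute difference was 0.16 on the log2 scale, and 1 exceeded 2-fold.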

How the data were processed

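The deposited files hold the authors' read counts per gene model, as whole numbers without normalization, for 170 thorax libraries. The labels' protocols describe strand-specific, polyA-anchored libraries, 1 with 450 nt and 1 with 650 nt average insert per butterfly. The submitters' processing notes name CASAVA 1.8, TopHat2 2.0.5 and edgeR without saying what each did. The build, the annotation, the counter and whether strand was used are not stated, so overlapping genes cannot be told apart. The authors' normalized table was not used here.

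Counts of each butterfly's libraries were summed. The replicate is the butterfly, and replicate numbers only name butterflies. Library totals ran from 659410 to 4349250. The filterByExpr function, given the 4 treatments, left 7643 genes with 99.8% of counts and all 100 transcripts, which were tested with edgeR 4.0.16 (R 4.3.3; TMM, robust quasi-likelihood F test) on all 85 butterflies. The model had 8 island by treatment means plus sex, or 8 sex by treatment means plus island for the sex difference in flight. P-values were adjusted by Benjamini-Hochberg over all 7643 genes, and 0.05 was the threshold. SE is the size of the log2 fold change over the root of F. Fold changes are TMM-scaled and CPM values are not. Insert sizes were compared by limma 3.58.1 with a prior count of 2. DESeq2 1.42.0 and limma-voom were alternatives. The procedure was tested on simulated counts. Spread, steps, variance shares and correlations used log2 of CPM plus a pseudocount of 0.5 and are descriptions. Co-variation groups came from average linkage on the lower of both islands' correlations, split at a distance of 0.5.

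Named transcripts were the 6 of highest rule value, 3 on either side of the limit, the 4 of highest mean CPM, up to 2 called higher and 2 called lower per comparison with the same direction in both islands (both sexes for island), the centre and closest partner of each group, and the 3 highest for step, for share between libraries and for remaining range. Others were chosen after their values were seen. The members and lists were chosen with earlier results of these data known. Marker and pathway lists were not used, since 0 of 16667 identifiers matched the reference table (assembly ilMelCinx1.1).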

Additional observations from a re-analysis of the deposited data

Results flagged for a closer look

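Flight effects differed between 20 h and 1 h in 8 of the 100 transcripts by the test of the difference itself. The difference was -4.46 for MCINXTMP_003386, -3.54 for MCINXTMP_009203, -3.38 for MCINXTMP_015383 and -2.51 for MCINXTMP_003916. It was 2.28 for MCINXTMP_015257, 2.20 for MCINXTMP_010837, 1.77 for MCINXTMP_015923 and 1.42 for MCINXTMP_009371. The flight effect in males minus that in females was -1.75 for MCINXTMP_007139. The sex effect in AL minus that in PT was -1.50 for MCINXTMP_006612 and -2.66 for MCINXTMP_004333.

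Single butterflies stood far from the others of their group in 16 of 76 groups examined, on the linear scale of counts or CPM. Chance alone does this in about 1 of 20 groups whose values are normally distributed, and the values here are skewed. AL female Control1h replicate 2 had 11 transcripts in the top 10% of its island, where the other 3 had 7 each, and PT female Control1h replicate 4 had 18. The remaining 14 cases are single control butterflies, found when the 13 transcripts called for flight were examined, not all of which had such a case. AL female Control20h replicate 3 was high for MCINXTMP_003386 (39.9 CPM), MCINXTMP_009203 (115.9 CPM) and MCINXTMP_015383 (304 CPM), the 3 transcripts with the largest rise 1 h after flight. PT female Control1h replicate 4 was high for MCINXTMP_009371 (96.4 CPM), MCINXTMP_010837 (38.4 CPM) and MCINXTMP_015923 (56.6 CPM). AL female Control20h replicate 1 was high for MCINXTMP_012359 (106.6 CPM) and MCINXTMP_008074 (195 CPM). AL female Control20h replicate 4 had 7.90 CPM of MCINXTMP_010837, and AL female Control20h replicate 2 had 44.7 CPM of MCINXTMP_003920. PT female Control20h replicate 3 had 126 CPM of MCINXTMP_003920, and PT female Control1h replicate 3 had 418 CPM of MCINXTMP_008074. For MCINXTMP_015257, AL female Control1h replicate 3 had 49.3 CPM and PT male Control1h replicate 2 had 62.9 CPM.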

How the results depend on the processing

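The 4 calls at 1 h after flight were 4 under every alternative run except PT alone, where 0 were called, and 4 in all 31 fits without 1 butterfly. At 20 h the count of 8 was 17 by DESeq2, 3 in females only, 3 in AL alone and 1 in PT alone, and from 5 to 11 without 1 butterfly. The count of 8 for flight at 20 h minus flight at 1 h was 2 by limma-voom, 4 with the 450 nt libraries only, 5 with the 650 nt libraries only, 3 in females only, 3 in AL alone and 0 in PT alone, and from 3 to 10 without 1 butterfly. The sex count of 35 was 20 in PT alone, and from 34 to 36 without 1 butterfly, and that of islands, 32, was from 29 to 36. The island difference in flight at 20 h was called in 1 transcript by DESeq2, 1 by limma-voom and 1 with the 650 nt libraries only. The sex difference in flight was called in 2 by DESeq2, 2 by limma-voom, and 0 with the 450 nt libraries only, in AL alone and in PT alone; without 1 butterfly it was 0 or 1, and it was 0 without PT female Flight1h replicate 10. Fits in 1 island or 1 sex have fewer butterflies; the cause of the other changes was not tested. The 18 results of transcripts named for a comparison kept their direction in every setting run for them.

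Of the 100 transcripts, the rule chose 65 again with the 450 nt libraries only, 50 with a minimum mean of 5 CPM, 52 with a minimum of 20 CPM, 61 in females only and 64 after subtraction of the sex by treatment means. It chose 93 to 99 again without 1 butterfly. TMM scaling kept 81, DESeq2 size factors 80 and the 650 nt libraries 78. The 16 transcripts in groups became 4 at a split of 0.4 and 36 without subtraction of group means. Depth limits the transcripts under 20 CPM most. Flown and control butterflies could not be paired, because the replicate numbers were given in accession order and only name butterflies.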
